A study of Homo sapiens with 3 samples.

Results

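Aldehyde dehydrogenases oxidise aldehydes to carboxylic acids, and the activity of several family members is what a widely used fluorescent assay for stem-like tumour cells reads. The genes described here are the 8 family members taken to contribute to that assay, ALDH1A1, ALDH1A2, ALDH1A3, ALDH1B1, ALDH2, ALDH3A1, ALDH3A2 and ALDH7A1. They were found by gene symbol among 17185 named genes on the array, and each was measured by 1 probe set. No measured value served as a threshold for membership, but the genes were chosen with earlier results of these data known.

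In the assay, cells take up a fluorescent aldehyde, and the enzyme turns it into a charged product that stays inside the cell, so cells with high activity become bright. ALDH1A1, ALDH1A2 and ALDH1A3 are cytosolic enzymes that convert retinaldehyde to retinoic acid, the ligand of the nuclear retinoic acid receptors. ALDH1B1 and ALDH2 are mitochondrial enzymes of acetaldehyde oxidation, ALDH3A1 and ALDH3A2 act on aromatic and fatty aldehydes, and ALDH7A1 serves lysine breakdown. The arrays measured RNA, and no enzyme activity was part of the data used here.

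The cells were MNNG/HOS, an established human osteosarcoma line grown in serum-free medium, which sheds floating spheres, called sarcospheres. Spheres that formed over the first 5 days were separated off, and all 3 cultures came from the adherent cells left behind. The untreated culture was kept a further 5 days without added factor, another had 3 days with 4 ng/mL of the cytokine TGF-beta1 (transforming growth factor beta 1) and is labelled mesophase, and the last had 5 days with 4 ng/mL, after which its suspended spheres alone, labelled iOSCs, were taken. Each culture gave 1 single-colour array. There were no replicates, so no test, no standard error and no p-value could be had, and the number of arrays limits the precision of each value below. Day 3 and untreated cells differ in treatment, in time in culture and possibly in the fraction of cells taken. Spheres and untreated cells differ in treatment and fraction. Spheres and day 3 cells differ in days of TGF-beta1, in time in culture and possibly in fraction. Within each comparison these differences cannot be told apart. A lower array value cannot separate fewer cells that express a gene from less RNA per cell.

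The array medians were close, with the untreated array at 455, the day 3 array at 437 and the sphere array at 445. Of 8 markers of the bone and mesenchymal lineage, 5 reached an intensity of 685, the median over the values of all genes, on at least 1 array. The bone transcription factor RUNX2 gave 4000.2, 4818 and 3246 in the order untreated, day 3, spheres, while ALPL, SP7 and IBSP stayed at or under 76.4 on each array. COL1A1, a chain of type I collagen, gave 1755, 10781 and 7408, and SPP1, osteopontin, 3436, 6601 and 3489. The summed intensity of these 8 markers was 25411, 40387 and 30948. Of the epithelial markers, KRT8, KRT18 and EPCAM also reached that level, and CDH1 was near the lowest values, with 8.59 at day 3; the 6 epithelial markers summed to 50537, 44988 and 34316. Among 5 genes on an endothelial list and 6 on a leukocyte list, 1 each reached it, PECAM1, at 65.6, 944 and 171, and CD68, at 3006, 1000.8 and 2248. The leukocyte list includes HBB, a haemoglobin gene and no leukocyte marker. The summed intensity of the endothelial list was 271 untreated, 1122 at day 3 and 333 in spheres, and that of the leukocyte list 3634, 1302 and 2563. The endothelial marker CDH5 gave 109.7, 126 and 118, and the leukocyte marker CD14 gave 509, 141 and 201, lowest at day 3 as CD68 was. VWF and PTPRC stayed at or under 30.8 on each array, and the remaining markers of both lists at or under 63.8. The part of these shifts in the results below was not tested.

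Regulatory sequence was at hand for 6 of the 8 genes, from RefSeq on GRCh38.p14, as the 250 bases before each of 8 annotated start sites. The ALDH1A3 and ALDH1A1 sequences are shown whole because these genes had the lowest log2 differences of the group against untreated cells, and capitals mark the motifs found in them. ALDH1A3 lies on chromosome 15, at chr15:100879581-100879830 on the plus strand, and ALDH1A1 on chromosome 9, at chr9:72953054-72953303 on the minus strand. Both are read 5′ to 3′ towards the start site.
ALDH1A3: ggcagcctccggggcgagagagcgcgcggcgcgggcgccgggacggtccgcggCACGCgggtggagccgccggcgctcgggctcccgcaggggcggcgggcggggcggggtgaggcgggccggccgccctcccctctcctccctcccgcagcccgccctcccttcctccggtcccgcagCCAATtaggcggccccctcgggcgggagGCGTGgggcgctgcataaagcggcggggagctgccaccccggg
ALDH1A1: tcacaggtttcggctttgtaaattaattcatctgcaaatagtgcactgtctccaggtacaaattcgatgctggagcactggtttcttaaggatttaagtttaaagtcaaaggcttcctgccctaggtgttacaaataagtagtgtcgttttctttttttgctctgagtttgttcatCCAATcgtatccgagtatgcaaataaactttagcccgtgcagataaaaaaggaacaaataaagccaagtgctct

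In ALDH1A3 the capitals are CCAAT, from 71 to 67 bases before the start, and GCGTG, the core of the site bound by the aryl hydrocarbon receptor, on the plus strand from 43 to 39 bases and on the minus strand from 197 to 193 bases before it. In ALDH1A1 they are CCAAT, from 74 to 70 bases before the start. The ALDH1A3 stretch had 82.4% G and C with 38 CpG dinucleotides, and the ALDH1A1 stretch 38.4% with 6, beside a median of 58.0% G and C over 35116 start sites. The retinaldehyde enzymes thus differed widely in base composition, with 72.8% at the first start site of ALDH1A2 and 41.6% at its second.

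Of 7 motifs searched on both strands, CCAAT was the one found in each of the 6 genes. It stood before 6 of their 8 start sites and before 32.0% of all start sites; the second site of ALDH1A2 and the first of ALDH3A2 had none. The surrounding 29 bases are shown to let the sites be compared, with the motif in capitals; in ALDH1B1 it lies on the minus strand and reads ATTGG.
ALDH1A1: gagtttgttcatCCAATcgtatccgagta
ALDH1A2: cggccctcacgtCCAATaagaagagcccc
ALDH1A3: ccggtcccgcagCCAATtaggcggccccc
ALDH1B1: aggcggagcctcATTGGccgctgagcccc
ALDH3A2: gggccgcccaggCCAATaggggtgaggct
ALDH7A1: ggtcgggtctgcCCAATgggttctcccgg

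The windows lie at chr9:72953111-72953139 (minus) for ALDH1A1, chr15:58065757-58065785 (minus) for ALDH1A2, chr15:100879748-100879776 (plus) for ALDH1A3, chr9:38392664-38392692 (plus) for ALDH1B1, chr17:19648709-19648737 (plus) for ALDH3A2 and chr5:126595266-126595294 (minus) for ALDH7A1. GCGTG was found before 3 of the 8 start sites, 1 each of ALDH1A2, ALDH1A3 and ALDH3A2, and before 32.2% of all start sites. With 8 start sites this count cannot be set apart from that share. The SMAD motif CAGACA was found in ALDH1A2 alone among the 6, before its second start site and so before 1 of the 8, and before 13.6% of all start sites. The AP-1 motif TGANTCA, the SMAD palindrome GTCTAGAC, the antioxidant motif TGACNNNGC and the retinoid receptor motif AGGTCA occurred at none of the 8 start sites, against 6.57%, 0.182%, 10.9% and 12.1% of all start sites. These matches describe letters in a window and no binding.

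The first question is how the enzymes differed between the cultures given TGF-beta1 and untreated adherent cells. ALDH1A3 was lower at day 3 and, by less, in spheres. ALDH1A1, the member most often used as a stem cell marker, was lower on both arrays by less than 2-fold, and no member was 2-fold higher in any of the 3 comparisons. Differences of at least 2-fold between 2 arrays are counted below, a rule of size that stands in for a test.

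The intensity of ALDH1A3 was 1064 on the untreated array, 394 at day 3 and 583 in spheres. The untreated array was the highest and day 3 the lowest. ALDH1A3 was 2.70-fold lower at day 3 than in untreated cells, a log2 difference of -1.43, the 388th lowest of 17185 genes. In spheres it was 1.82-fold lower than in untreated cells (log2 -0.87), short of the rule, and 1.48-fold higher than at day 3 (log2 0.57). When genes were ranked by mean level and split into 4 equal bins, ALDH1A3 fell in the second lowest bin, where 2-fold differences were most frequent: 11.5% of its 4296 genes were at least 2-fold lower at day 3.

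The intensity of ALDH1A1 was 342 on the untreated array, 229 at day 3 and 202 in spheres, so it was highest in untreated cells and lowest in spheres. It was 1.49-fold lower at day 3 (log2 -0.58) and 1.69-fold lower in spheres (log2 -0.76) than in untreated cells. Spheres and day 3 differed by a log2 value of -0.18. These intensities lie below the median of all gene values, with 37.1% of genes lower in spheres and 42.2% lower in untreated cells.

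ALDH1A2, the main retinaldehyde enzyme of the early embryo, gave 7.66 in untreated cells, 8.91 at day 3 and 10.1 in spheres. These are among the lowest values of each array: 0.832% of genes were lower in untreated cells, 1.91% at day 3 and 2.82% in spheres. The log2 differences against untreated cells were 0.22 at day 3 and 0.40 in spheres, and with 64 added to each intensity they were 0.02 and 0.05. Whether any of this signal exceeded background is not known, since no detection calls were used here.

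**Figure D1:**
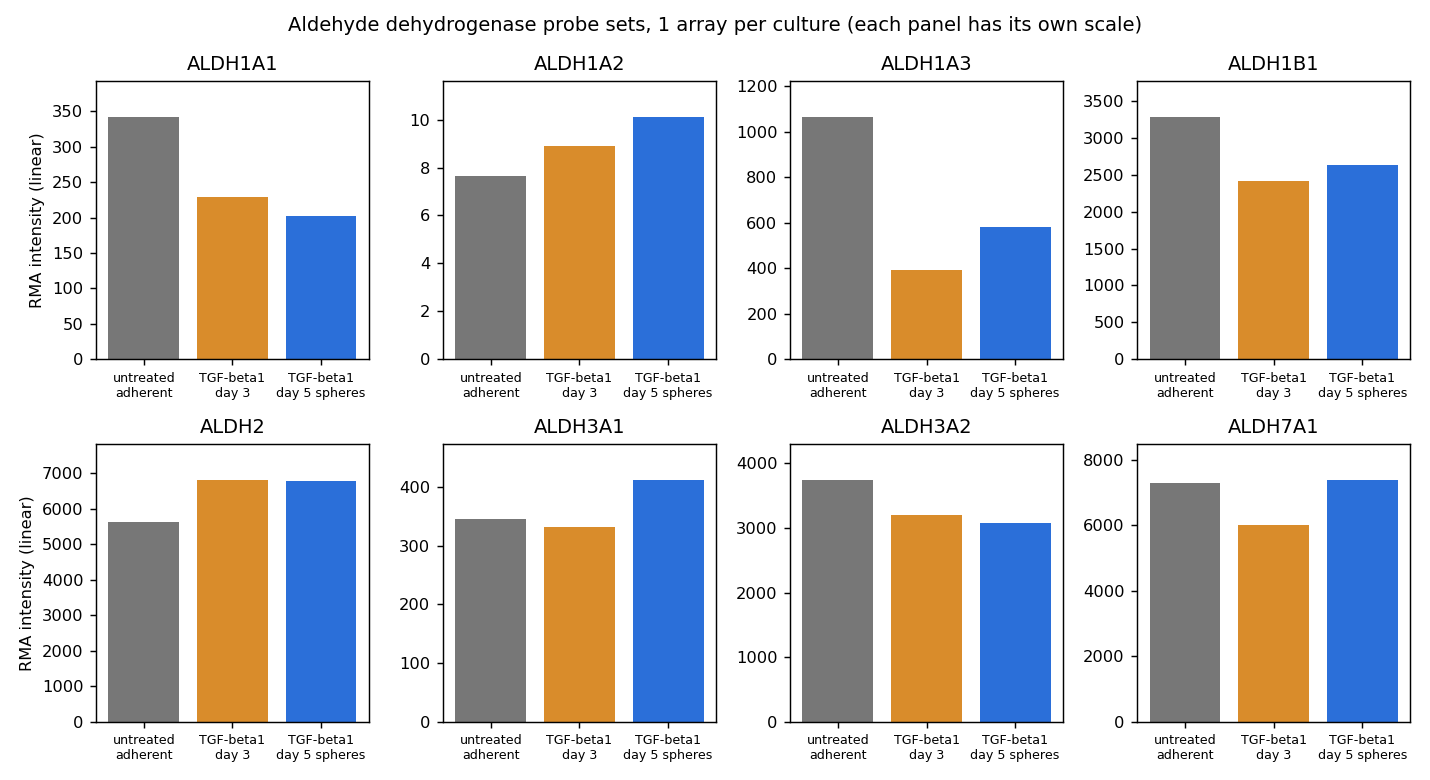
Linear RMA intensity (y axis, from 0, a separate scale in each panel) of the 8 genes on the untreated, TGF-beta1 day 3 and day 5 sphere arrays; each bar is 1 array and there are no error bars. ALDH1A3 falls from 1064 to 394 and 583, and ALDH1A1 from 342 to 229 and 202, while ALDH1A2 stays at or under 10.1.

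Of the mitochondrial enzymes, ALDH1B1 gave 3283 in untreated cells, 2417 at day 3 and 2629 in spheres. It was 1.36-fold lower at day 3 and 1.25-fold lower in spheres, with log2 differences of -0.44 and -0.32. ALDH2, the principal enzyme of acetaldehyde clearance, gave 5630.4 untreated, 6816 at day 3 and 6779 in spheres. It went the other way from ALDH1B1, 1.21-fold higher at day 3 and 1.20-fold higher in spheres, and the TGF-beta1 arrays differed from each other by a log2 value of -0.01.

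ALDH3A1, known from the cornea and as a gene induced through the aryl hydrocarbon receptor, gave 345 untreated, 332 at day 3 and 412 in spheres. Its log2 differences from untreated cells were -0.06 and 0.25. ALDH3A2, the membrane-bound fatty aldehyde dehydrogenase, gave 3743, 3204 and 3071 in the same order. It was 1.17-fold lower at day 3 and 1.22-fold lower in spheres. ALDH7A1 gave 7313 untreated, 6028 at day 3 and 7391 in spheres, with a log2 difference of -0.28 at day 3 and 0.02 in spheres. Day 3 was thus the lowest array for ALDH7A1, as it was for ALDH1A3, ALDH1B1 and ALDH3A1.

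Over the 8 genes at day 3, 1 was at least 2-fold lower than in untreated cells and 0 were at least 2-fold higher, where 5.26% and 5.77% of all 17185 genes were. In spheres against untreated cells 0 were past 2-fold either way, where 5.00% of genes were lower and 4.90% higher. In spheres against day 3 again 0 were past it, where 5.78% of genes were higher and 4.72% lower. With 8 members, counts of 0 and 1 cannot be set apart from these shares.

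The median log2 difference of the 8 genes at day 3 was -0.25, beside a median of -0.01 over all genes. Of the 8, 2 were above 0 and 6 below, where 49.5% of all genes were above 0. ALDH3A1, at -0.06, is among those 6. In spheres the median was -0.14, with 4 genes above 0 and 4 below, beside 0.01 and 50.5% above 0 over all genes. These comparisons share the untreated array, so they do not repeat each other. For spheres against day 3 the median was 0.15, with 5 of the 8 above 0, beside -0.04 and 47.0% above 0 over all genes. With 8 members, no shift of the group can be read from these counts. The untreated array held the highest value for ALDH1A1, ALDH1A3, ALDH1B1 and ALDH3A2, spheres for ALDH1A2, ALDH3A1 and ALDH7A1, and day 3 for ALDH2.

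**Figure D2:**
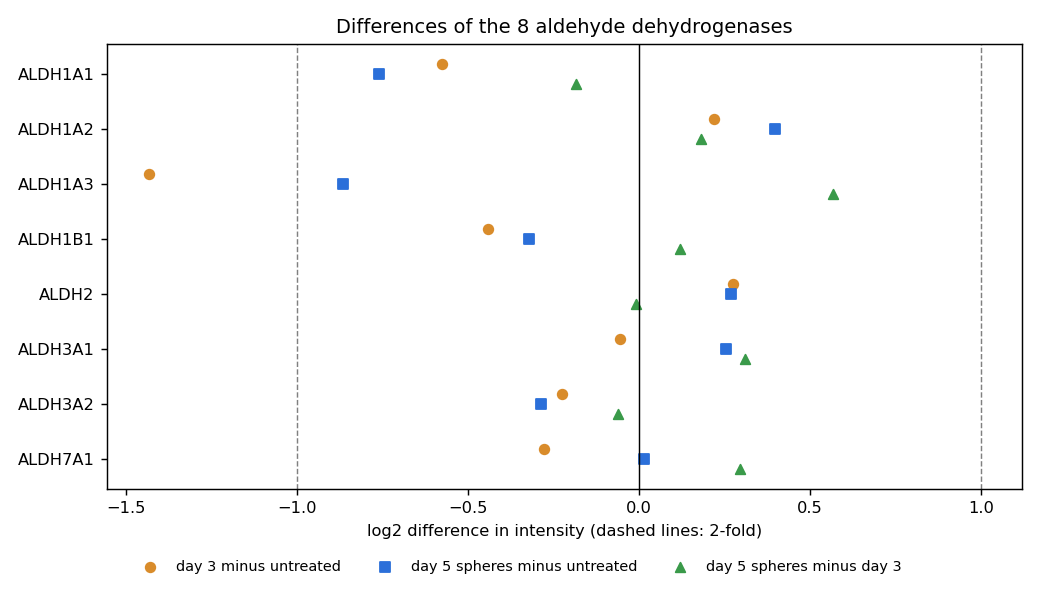
Log2 difference in intensity (x axis) of each of the 8 genes (y axis) for day 3 minus untreated (circles), day 5 spheres minus untreated (squares) and day 5 spheres minus day 3 (triangles), from 1 array per culture; dashed lines mark 2-fold. ALDH1A3 at day 3, at -1.43, is the 1 point past a dashed line.

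No replicate error exists for these values, but 1349 genes had several probe sets, whose log2 differences show how far probes for the same gene can part. At day 3 against untreated cells the gap between the highest and lowest probe set of a gene had a median of 0.17 and a 90th percentile of 0.67 for the 771 such genes that reached an intensity of 685 on some array. For the 578 that did not, these were 0.39 and 1.12. ALDH1A3 reached 685 on the untreated array alone, so the difference itself decides which of these classes it is set against. Its value of -1.43 was larger in size than the 90th percentile of either. In spheres against untreated cells its -0.87 was larger in size than the 90th percentile of 0.72 for bright genes but within that of 1.04 for dim genes. The ALDH1A1 differences of -0.58 at day 3 and -0.76 in spheres lay within the range for dim genes, whose 90th percentile was 1.04 in the sphere comparison. The values of ALDH2, ALDH3A2 and ALDH7A1, at most 0.29 in size, lay within the 90th percentile for bright genes, as did those of ALDH1B1. Such gaps include real differences between transcripts of a gene, and they hold no spread between cultures.

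Of the 8 genes, 5 reached an intensity of 685 on at least 1 array, and ALDH1A1, ALDH1A2 and ALDH3A1 did not. ALDH2, ALDH3A2 and ALDH7A1 fell in the highest of the 4 level bins, where 1.72% of genes were 2-fold different in either direction at day 3, and ALDH1B1 in the next, with 9.78%. In the second lowest bin, which held ALDH1A1, ALDH1A3 and ALDH3A1, that share was 23.0%. The range of ALDH1A3 over the 3 arrays, 1.43 in log2, was wider than that of 91.1% of genes. The range of ALDH1A1, at 0.76, was wider than that of 67.1%, and the other 6 had ranges from 0.28 to 0.44.

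**Figure D3:**
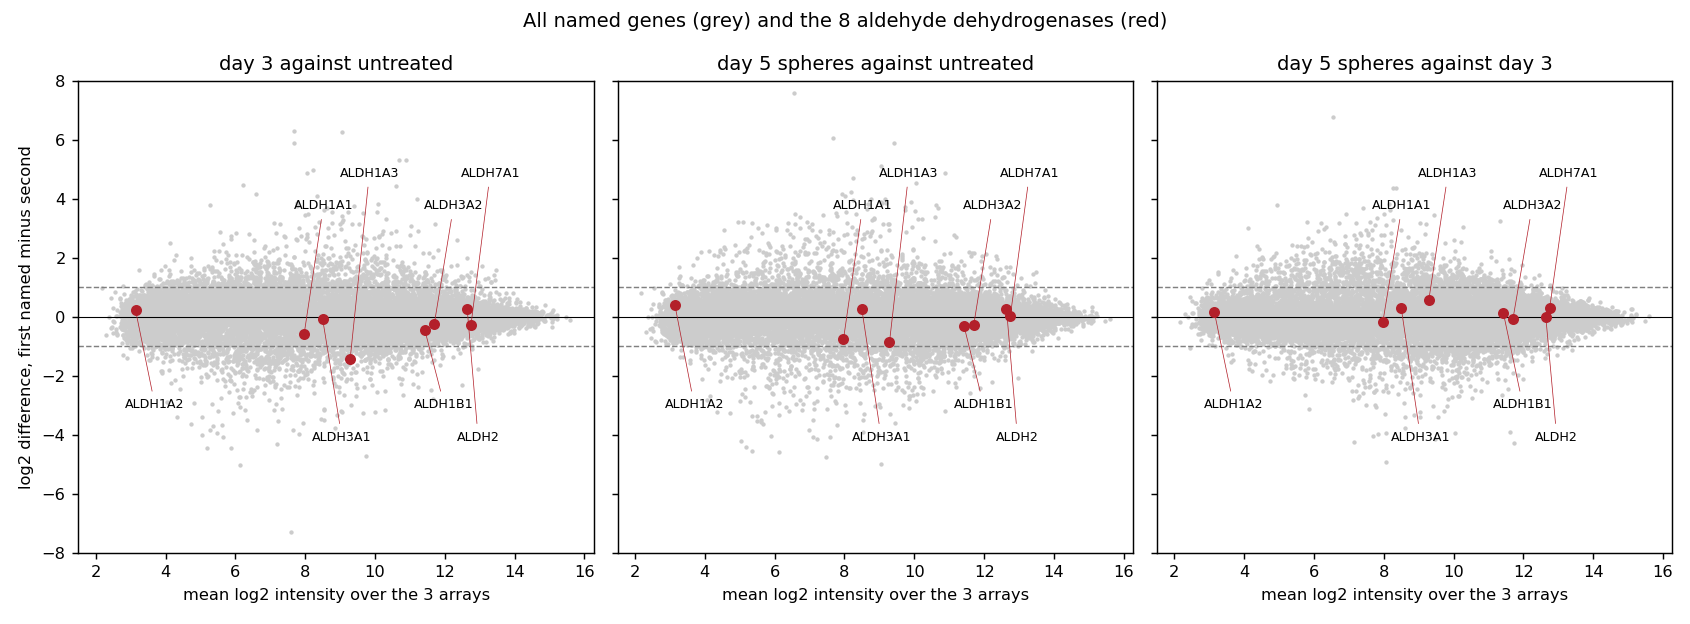
Log2 difference (y axis) against mean log2 intensity over the 3 arrays (x axis) for 17185 named genes (grey) and the 8 aldehyde dehydrogenases (red, labelled), 1 panel per comparison; dashed lines mark 2-fold. The red points lie inside the grey cloud, and ALDH1A3 at day 3 is the 1 member outside the dashed lines.

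ALDH1A3 had the widest range of the 8, and genes whose pattern over the arrays was most like it were sought among 9284 others that reached an intensity of 685, by Euclidean distance between log2 values centred per gene. The nearest was ZNF180, at a distance of 0.036, with intensities of 1482 untreated, 546 at day 3 and 786 in spheres. NCEH1 and ARSJ followed, both at 0.078. With 3 arrays a close match of this kind is easily had.

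The other aldehyde dehydrogenases serve amino acid, folate and other metabolism, and 10 of 11 on the list were measured. Against untreated cells none of the 10 was past 2-fold at day 3, while 2 were at least 2-fold higher in spheres and 0 lower. Over all genes 4.90% were at least 2-fold higher in spheres and 5.00% lower. The 2 higher in spheres were ALDH5A1, which oxidises succinic semialdehyde in the breakdown of GABA, and ALDH6A1, an enzyme of valine breakdown. ALDH5A1 gave 497 untreated, 783 at day 3 and 1350.3 in spheres, 2.72-fold higher in spheres than untreated. ALDH6A1 gave 1413, 1479 and 3028, 2.14-fold higher in spheres than untreated and 2.05-fold higher than at day 3. ALDH1L2, the mitochondrial 10-formyltetrahydrofolate dehydrogenase, was 2.03-fold higher in spheres than at day 3, at 441 against 217, below the median gene level. For spheres against day 3, 2 of the 10 were at least 2-fold higher and 0 lower, where 5.78% of all genes were higher and 4.72% lower. The list's median log2 difference was -0.09 at day 3 and 0.08 in spheres against untreated cells, and 0.53 for spheres against day 3. Over all genes these medians were -0.01, 0.01 and -0.04. With 10 genes and 1 array per culture, no shift of the list can be read from these values.

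**Figure D4:**
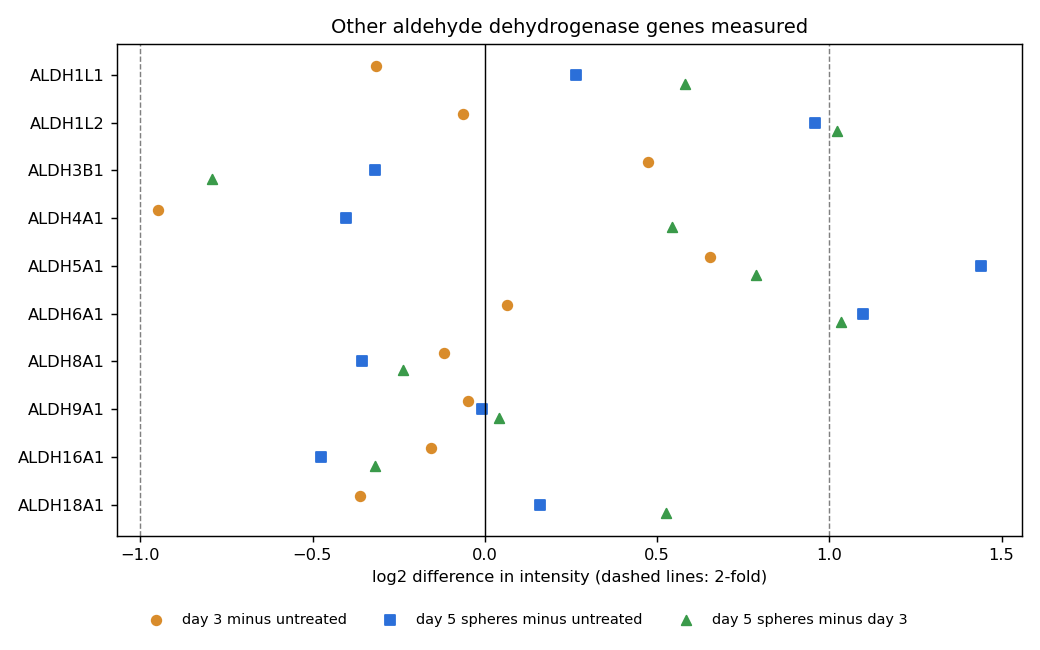
Log2 difference in intensity (x axis) of the 10 measured aldehyde dehydrogenase genes outside the 8 (y axis), with the same symbols and dashed 2-fold lines as for the 8 genes. ALDH5A1 and ALDH6A1 in spheres lie past 2-fold above untreated cells, and none lies past 2-fold on the lower side.

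ALDH1A1, ALDH1A2 and ALDH1A3 stand in the retinoid pathway, whose other genes moved in both directions. Of 13 measured genes of retinol uptake, storage and conversion, 4 were at least 2-fold higher and 2 lower at day 3, and 1 higher and 1 lower in spheres, against untreated cells. Over all genes 5.77% were higher and 5.26% lower at day 3, and 4.90% higher and 5.00% lower in spheres. In the second lowest level bin 23.0% were past 2-fold either way at day 3. No list count was tested against these shares. STRA6, the membrane receptor for retinol uptake, gave 158 untreated, 688 at day 3 and 436 in spheres. RDH10, a dehydrogenase that makes the retinaldehyde the ALDH1A enzymes use, gave 450.4 untreated, 1088 at day 3 and 862 in spheres, 2.42-fold higher at day 3. RDH5, another retinol dehydrogenase, gave 1509.8, 4893 and 1049.9. DHRS3, which reduces retinaldehyde back to retinol and is singled out here after its values were seen, gave 330.2, 164 and 131. At day 3, where ALDH1A3 was at its lowest, STRA6, RDH5 and RDH10 were at their highest of the 3 arrays. These genes were named for being past 2-fold and reaching the median gene level on some array, which STRA6 did at day 3 alone. That choice partly fixes the pattern, so no relation to ALDH1A3 can be read from it. Left out by the rule were the dim RBP4, lowest at day 3 (225, 98.8 and 142), and the dim BCO2, highest there (34.8, 113 and 48.2).

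The next counts stand beside the same shares: 5.77% of all genes higher and 5.26% lower at day 3, 4.90% and 5.00% in spheres. Of 6 genes that bind or break down retinoic acid, 1 was 2-fold lower at day 3, the low-intensity CYP26A1, named after its values were seen. In spheres 1 was 2-fold higher and 1 lower than in untreated cells. These were the binding proteins CRABP1, at 1225 untreated, 2015 at day 3 and 4121 in spheres, and CRABP2, at 2526, 2918 and 438. Of 10 receptors and cofactors, 1 was past 2-fold in spheres against untreated cells, RARG, at 997 untreated, 641 at day 3 and 364 in spheres, and 1 was past it at day 3, PPARD, a dim gene named after its values were seen and 2.33-fold lower. Of 15 known retinoic acid targets, some of them in the lists above, 4 were at least 2-fold higher and 2 lower at day 3, and 2 higher and 3 lower in spheres. Among the higher ones were PDK4, 3.35-fold at day 3, and CDX1, 2.06-fold at day 3 and 2.76-fold in spheres. Both are dim genes named after their values were seen. RARRES2, which encodes chemerin, gave 505 untreated, 5969.8 at day 3 and 390.3 in spheres, and TGM2, transglutaminase 2, gave 2346, 1224 and 278. The medians of this target list were 0.17 at day 3 and -0.06 in spheres.

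**Figure D5:**
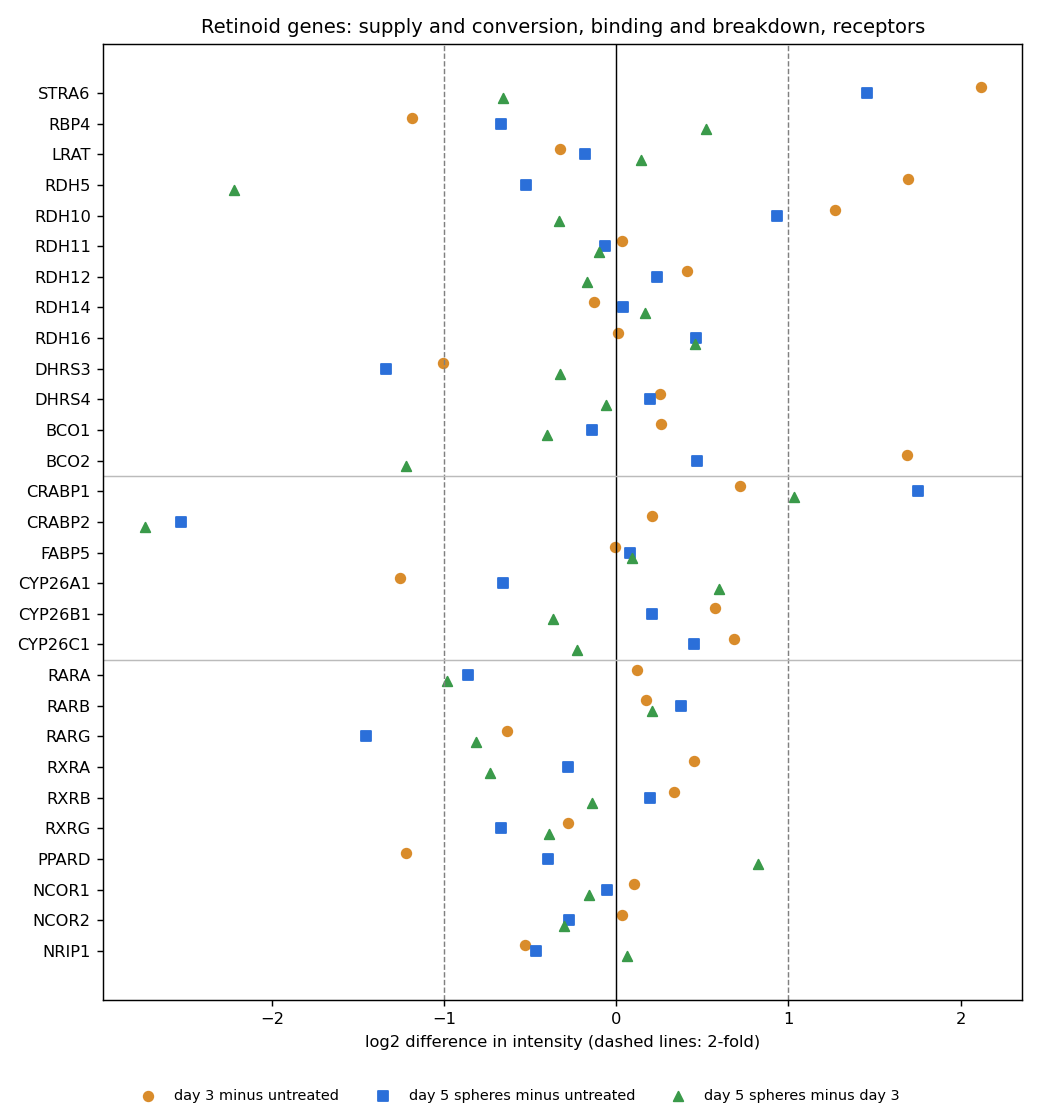
Log2 difference in intensity (x axis) of retinoid genes (y axis) grouped by grey lines into supply and conversion, binding and breakdown, and receptors with cofactors, with symbols as for the 8 genes and dashed lines at 2-fold. STRA6 lies past 2-fold on the higher side of untreated cells at day 3 and in spheres, and CRABP2 lies past it on the lower side in spheres alone.

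The pathways around the other members were counted the same way. Over all genes 5.77% were 2-fold higher and 5.26% lower at day 3, and 4.90% and 5.00% in spheres. The counts below were not tested against these shares. Of 11 genes of lysine and choline breakdown, the setting of ALDH7A1, 0 were past 2-fold at day 3 and 1 was lower in spheres, CHDH, a dim gene named after its values were seen. Another list held 11 genes of pathways linked to the fatty aldehydes of ALDH3A2, not all of which act on the aldehydes themselves. Of these, 1 was higher and 1 lower at day 3, and 1 was higher in spheres. That last was SPHK1, a sphingosine kinase, at 2278 untreated and 9495 in spheres. At day 3 the genes past 2-fold were AGMO, 2.31-fold higher, and FAR2, 2.40-fold lower. Both are dim and named after their values were seen. Of 7 measured aryl hydrocarbon receptor genes, the pathway that induces ALDH3A1, 1 was at least 2-fold lower at day 3 and in spheres. This was CYP1A1, a dim gene named after its values were seen, at 204, 53.0 and 38.8. Of the 7, 4 were above 0 at day 3 and 1 in spheres, with list medians of 0.17 and -0.23. The brighter CYP1B1 gave 6019.8, 8916 and 4732. Of 19 other enzymes of alcohol and aldehyde metabolism, 1 was higher and 2 lower at day 3, and 2 higher and 1 lower in spheres. AOX1, an aldehyde oxidase, gave 525 untreated, 122 at day 3 and 319 in spheres, 4.29-fold lower at day 3, and AKR1B10, an aldo-keto reductase, was 2.48-fold lower at day 3 and 2.31-fold lower in spheres; both are dim genes named after their values were seen. GSTA4, a glutathione transferase for the lipid aldehyde hydroxynonenal, was 2.08-fold higher at day 3, and the carbonyl reductase CBR4 was 2.24-fold higher in spheres than untreated. The other gene higher in spheres than untreated was CYP2E1, at 34.5, 22.1 and 73.5, also dim and named after its values were seen. In spheres against day 3, 4 of the 19 were at least 2-fold higher and 0 lower. Over all genes 5.78% were higher and 4.72% lower in that comparison, and this count was not tested either. Among the 4 was ADH5, the formaldehyde-clearing alcohol dehydrogenase, 2.12-fold higher.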

How the data were processed

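Total RNA of 3 MNNG/HOS cultures was hybridised to 1 Cy3 array each, per the labels' protocols. The deposited intensity values, 1 per probe set and array, come from RMA, per the submitters' processing notes, a method that subtracts background, aligns the distributions of arrays and summarises probes. They are on a linear scale, between 2.37 and 51530; the sources used here do not give the step off the log scale, the version or the scanner. RMA hides any shift common to most genes, and background weighs on low values.

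The log2 of each intensity was taken with no offset (Python 3.11.15, pandas 2.3.3, numpy 2.4.6). Of 45033 probe sets, 18188 were named through the platform's gene table, updated by gene identifier, and 678 by RefSeq accession; 26167 stayed unnamed, so further probes for the 8 genes may exist among them. A gene's value is the mean over its probe sets. The medians and shares over all genes use 17185 genes without a filter, and 9285 had at least 1 value at or above an intensity of 685, the median over all genes. The calculation was checked on simulated data.

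The members and the gene lists were chosen with earlier results of these data known. Named from each list were up to 4 genes past 2-fold and at that level, all other aldehyde dehydrogenases past 2-fold, and the 3 genes nearest in pattern to the member with the widest range. Alternatives were the brightest or median probe set, centring each array, quantile normalization, 64 added to each intensity, the level filter, and thresholds of 1.5-fold and 3-fold. ALDH3B2, DHRS9, AHRR and UGT1A6 matched no named probe set. The counts of the retinoid lists leave out 1 gene that is not reported here. Promoter sequences are from RefSeq; gene coordinates were not used.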

Additional observations from a re-analysis of the deposited data

How the results depend on the processing

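The alternatives were compared for the counts and median of the 8 genes and for each gene's difference. With a 1.5-fold threshold, 2 members instead of 0 were lower in spheres than in untreated cells, ALDH1A1 and ALDH1A3, and at day 3 the count stayed 1, with ALDH1A1 at 1.49-fold. With a 3-fold threshold, 0 members instead of 1 were lower at day 3. Centring each array turned the day 3 difference of ALDH3A1 from -0.06 to 0.0006. The remaining 64 alternative values of counts and medians and 119 of single genes kept their direction and their side of the threshold, or, for counts, stayed within 1.5 times. Medians moved in size all the same: in spheres against untreated cells from -0.14 to -0.29 with the level filter, and in spheres against day 3 from 0.15 to 0.07 with 64 added. Choosing among probe sets cannot change the 8 genes, which have 1 each. The values from the brightest and median probe set settings, counted among the 64 and 119, were therefore fixed in advance. ALDH1A3 ranged from -1.43 to -1.30 at day 3 and from -0.87 to -0.80 in spheres, and ALDH1A1 from -0.58 to -0.47 and from -0.76 to -0.61.

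Over all genes, adding 64 lowered the numbers at least 2-fold higher and lower at day 3 from 991 and 904 to 518 and 435, in spheres from 842 and 860 to 478 and 529, and for spheres against day 3 from 994 and 811 to 556 and 527. The level filter, which tests fewer genes, gave 427 and 319, 370 and 409, and 424 and 475. A 1.5-fold threshold gave 2623 and 2352, 2122 and 2301, and 2244 and 2264, and a 3-fold threshold 287 and 274, 303 and 301, and 312 and 236. No array could be left out, since each group has 1. No paired analysis was possible because each group holds 1 array and no test was made. Low signal limits ALDH1A2 most, whose differences at day 3 ranged from 0.02 to 0.27.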
